A study of Mus musculus with 2 samples.

Results

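Chemokines are small secreted proteins that attract leukocytes, and they are named for the spacing of the cysteines near their amino end (CC, CXC, CX3C and XC). They act through G protein-coupled receptors carried by the responding cells, and most receptors bind several ligands. In the small intestine the epithelium makes some of them itself, such as Ccl25, which draws in lymphocytes with the receptor Ccr9, and Ccl20, which draws in cells with Ccr6 towards lymphoid follicles. Others, such as Ccl5 and Xcl1, are mostly products of lymphocytes. The genes described here are those whose symbol in the array's annotation begins with Ccl, Cxcl, Ccr or Cxcr and a digit, with Cx3c or with Xcl. This rule, which uses no measured value, found 45 probes for 44 genes among the 16390 named genes on the array, with 30 ligands and 14 receptors. Cxcl4 and Cxcl7 are the annotation's names for Pf4 and Ppbp, ligands stored in platelets.

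All cells came from mice carrying the alleles Atoh1-crePGR, Lgr5-EGFP-IRES-creERT2 and Rosa26-tdTomato; their age and sex are not given in the sources used here. Atoh1 is the transcription factor of the secretory lineage, and the Cre fused to a progesterone receptor is active only with RU486, injected into the peritoneum on 5 consecutive days, after which cells that had expressed it and their progeny keep tdTomato. At 20 days after recombination, epithelial cells of the small intestine from 4 mice were combined and sorted for both fluorescent proteins. Cells with EGFP but no tdTomato (EGFP only) are Lgr5 cells without a recorded Atoh1 origin, cells with both (double positive) are Lgr5 cells of Atoh1 origin, and cells with tdTomato but no EGFP (tdTomato only) are other descendants of Atoh1-expressing cells. All 3 fractions carry the reporter allele at Lgr5, so the fractions differ by the fluorescence at sorting and not by genotype. The EGFP-only RNA was labelled with Cy5 on 2 two-colour arrays, against double-positive RNA in Cy3 on array 1 and tdTomato-only RNA in Cy3 on array 2.

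With 1 sample per population there was no replicate error and no test, and differences were described by size, at least 2-fold. Both comparisons with the EGFP-only population share that population. Its channel was measured on both arrays, and over the 21 member probes above background in it the log2 levels of the arrays differed with an SD of 0.068 and by at most 0.22, which describes technical spread only. The epithelial gene Epcam was bright in all 4 channels, with spot medians from 7294 to 23082. Its log2 ratios to EGFP only were −0.55 in the double-positive and −0.64 in the tdTomato-only population, and −1.19 and −1.30 in the authors' deposited ratios. The Lgr5 probe had log2 ratios of 0.26 in the double-positive and −0.89 in the tdTomato-only population. The leukocyte gene Ptprc was also above background in every channel (91.8 to 204). In RNA from many cells, fewer cells of a type and less RNA per cell cannot be told apart.

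The background limit of a channel was set at the mean of its blank spots plus 2 SD, in scanner units of the spot median. These limits were 74.1 for the EGFP-only and 82.2 for the double-positive channel of array 1, and 75.7 for EGFP only and 85.4 for tdTomato only on array 2. Of the 44 members, 21 exceeded the limit in the EGFP-only channel of either array, 31 in the double-positive channel and 29 in the tdTomato-only channel. As shares of the members these are 47.7% for each EGFP-only channel, 70.5% for the double-positive and 65.9% for the tdTomato-only channel. Among all named genes the shares were 72.6% and 70.7% for the EGFP-only channels of arrays 1 and 2, 80.3% for the double-positive and 75.8% for the tdTomato-only channel. The shortfall of the members against all genes was thus wider in the Cy5 channels than in the Cy3 channels, and dye and population cannot be told apart in that comparison. The 21 members of the EGFP-only channel were 17 ligands and 4 receptors, and each of them was above background in all 4 channels. Another 11 members were above background in none, with spot medians of 64.1 to 72.7 in the EGFP-only and 77.3 to 83.4 in the other channels. They are Ccl2, Ccl7, Ccl11, Ccl12, Cxcl4, Cxcl5, Cxcl12, Cxcl15, Ccr3, Ccr7 and Ccr8, among them the main ligands for monocytes and eosinophils and the receptor that guides lymphocytes and dendritic cells to lymph nodes.

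**Figure D1:**
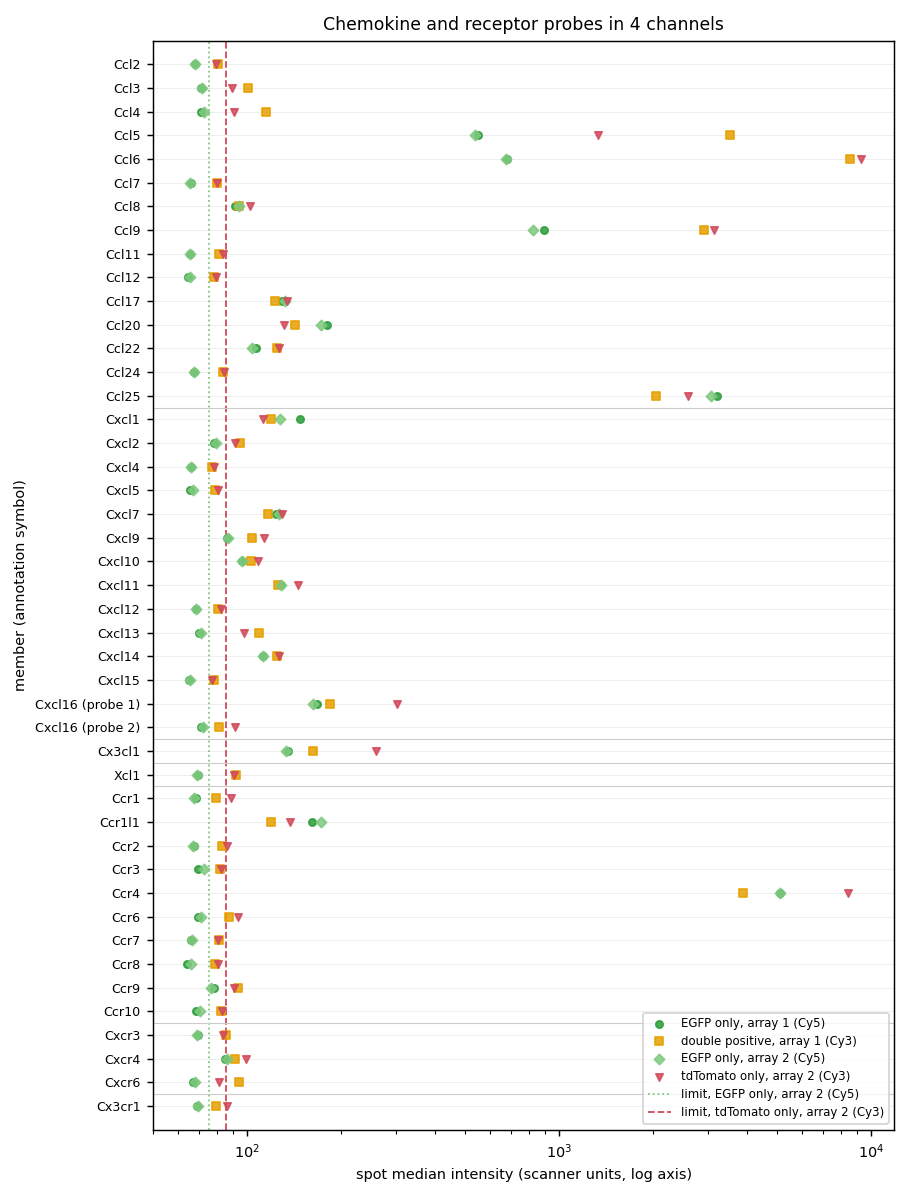
Spot median intensity (horizontal log axis, scanner units) of each of the 45 member probes in the 4 channels, ordered by ligand and receptor class, with the background limits of array 2 as vertical lines. Most probes lie close to the limits, while Ccl5, Ccl6, Ccl9, Ccl25 and the probe annotated as Ccr4 lie far above them in every channel.

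The log2 ratio of the other population over EGFP only could be formed for 21 members on each array. Of these, 3 reached 2-fold higher levels in the double-positive population (5.1% of all 11774 genes measured did) and 0 at least 2-fold lower (0.34% of all genes). In the tdTomato-only population 6 of 21 were at least 2-fold higher (6.15% of 11381 genes) and 0 at least 2-fold lower (1.19%). The median log2 ratio of the members was 0.15 on array 1 and 0.21 on array 2, beside −0.01 on either array for all genes. Median centring in place of loess shifts the median of all genes to −0.21 on each array and turns the split of all genes past 2-fold from 601 higher and 40 lower to 364 and 740 on array 1, and from 700 and 135 to 407 and 850 on array 2. In the authors' deposited ratios the splits were 1244 and 420, and 1209 and 828. The remaining ratios of the members lay from −0.33 to 0.52 on array 1 and from −0.33 to 0.45 on array 2.

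**Figure D2:**
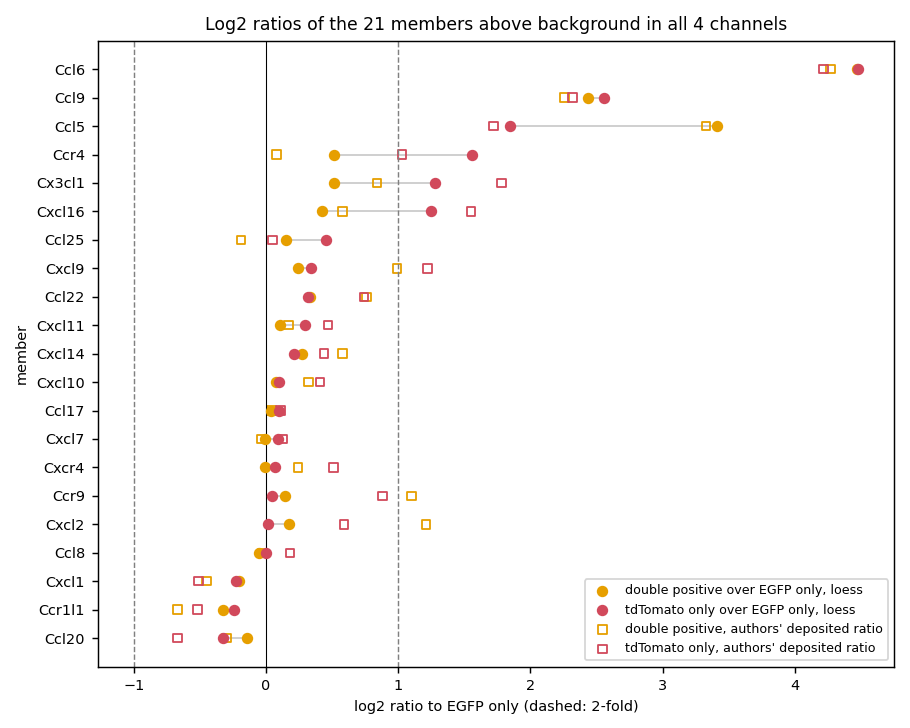
Log2 ratio to the EGFP-only population (horizontal axis) of the 21 members above background in all 4 channels, with filled circles for the loess-normalized ratios and open squares for the authors' deposited ratios, in orange for double positive and red for tdTomato only. Among the filled circles Ccl6, Ccl9 and Ccl5 lie past the dashed 2-fold line in both populations, and Ccr4, Cx3cl1 and Cxcl16 in the tdTomato-only population alone. Among the open squares Ccr9 and Cxcl2 in double positive and Cxcl9 in tdTomato only lie past it too.

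Among the CC ligands, Ccl6 and Ccl9 are rodent chemokines best known from macrophages and other myeloid cells. Ccl6 had spot medians of 682 and 677 in the EGFP-only channels of arrays 1 and 2, 8546 in the double-positive and 9254 in the tdTomato-only channel. Both Cy3 populations were far above the EGFP-only level and close to each other, at 22.2-fold (log2 ratio 4.47) and 22.3-fold (log2 ratio 4.48). By this ratio Ccl6 stood at rank 16 of 11774 genes on array 1 and at rank 14 of 11381 on array 2. The ranking kept genes with a saturated Cy3 spot, whose ratios are lowered, so Ccl6 could rank lower without saturation. Ccl9 had spot medians of 892 and 823 in the EGFP-only channels, 2905 in the double-positive and 3135 in the tdTomato-only channel. It was 5.42-fold and 5.88-fold higher, so the 2 Atoh1-derived populations were again alike and both lay above EGFP only. Over all settings of the processing the log2 ratios of Ccl6 ranged from 3.73 to 4.66 and those of Ccl9 from 1.77 to 2.67. None of these 4 channels was saturated for either probe.

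The sequences before the start sites of these ligands are shown because Ccl6 and Ccl9 stood together as neighbouring genes and Cx3cl1 differed from them in its pattern. They are the 250 bases upstream of the start given by RefSeq for the mouse assembly GRCm38.p6, 5′ to 3′ on the gene's strand, at chr11:83593088-83593337 (minus strand) for Ccl6, chr11:83578637-83578886 (minus strand) for Ccl9 and chr8:94771930-94772179 (plus strand) for Cx3cl1. Capitals mark matches, on either strand, to 5 motifs.
Ccl6: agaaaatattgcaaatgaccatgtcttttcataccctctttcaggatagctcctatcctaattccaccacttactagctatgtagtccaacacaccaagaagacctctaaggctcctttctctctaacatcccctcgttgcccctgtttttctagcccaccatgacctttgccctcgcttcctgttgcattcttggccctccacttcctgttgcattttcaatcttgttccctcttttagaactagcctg
Ccl9: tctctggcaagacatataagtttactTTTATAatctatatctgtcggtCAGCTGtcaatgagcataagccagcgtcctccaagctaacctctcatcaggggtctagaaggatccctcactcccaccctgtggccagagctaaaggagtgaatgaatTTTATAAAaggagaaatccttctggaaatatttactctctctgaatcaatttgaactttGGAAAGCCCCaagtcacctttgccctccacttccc
Cx3cl1: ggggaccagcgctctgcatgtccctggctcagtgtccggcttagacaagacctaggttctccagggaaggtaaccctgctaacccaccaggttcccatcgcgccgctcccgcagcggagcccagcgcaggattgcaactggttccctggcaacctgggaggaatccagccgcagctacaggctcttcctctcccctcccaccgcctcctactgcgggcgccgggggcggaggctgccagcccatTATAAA
The motifs were the NF-κB site (GGG and CC with any 5 bases between), the TATA box TATAAA, the E-box CAGCTG, the C/EBP site TTNNGCAA and the GATA site AGATAA. The first of these is held by 45.8% of 32851 upstream windows of this length in the table, and the others, in this order, by 12.4%, 13%, 9.56% and 9.99%. The Ccl6 window held none of them. The Ccl9 window held 1 NF-κB match, 1 E-box and 3 TATA matches, of which 2 overlap. The Cx3cl1 window held TATAAA in the last 6 bases before the start. In the first listed window of each of the 33 members with one, 16 held the NF-κB motif, 10 the TATA motif and 7 the E-box. The C/EBP motif was held by 2 and the GATA motif by 5. Ccr6 and Ccl25 had a second window, which these counts leave out. That of Ccr6 held 2 NF-κB matches and 1 GATA match, and that of Ccl25 held 1 TATA match. The Ccl6 and Ccl9 windows were 50% identical in a global alignment, within the 46.9% to 53.3% found for the other pairs aligned, namely either of them with Ccl3, Ccl8, Ccl12 or Cx3cl1.

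After loess, the marker lists of Paneth cells, goblet cells and enterocytes were mostly past 2-fold on both arrays, and that of myeloid cells was mostly not. The defining goblet cell gene Muc2 went against its list, with log2 ratios of −0.40 and 0.16. The defining enterocyte gene Apoa1 had 2.78 and 3.61. The defining Paneth cell genes Lyz1 and Defa24 and the enterocyte gene Alpi were not among the markers found on the array. The part of these cell types in the Ccl6 and Ccl9 ratios was not tested. The 10 Paneth cell markers on the array had a summed intensity above the blank mean of 60058 and 66672 in the EGFP-only channels, 444748 in the double-positive and 416410 in the tdTomato-only channel. The 12 goblet cell markers summed to 52231 and 45617 in the EGFP-only channels, 150037 in the double-positive and 310850 in the tdTomato-only channel. Saturated spots lower the Cy3 sums of the Paneth and goblet cell lists. Of 8 enterocyte markers measured, 7 were at least 2-fold higher on each array (medians 2.25 and 3.09), against 5.1% and 6.15% of all genes. Of 17 myeloid markers on the array, with sums of 1410 and 1366 in the EGFP-only, 2007 in the double-positive and 1667 in the tdTomato-only channel, 3 of 12 measured were past 2-fold on array 1 (median 0.04) and 1 of 10 on array 2 (median 0.21). The 3 were the complement gene C1qb (12.3-fold, and 9.82-fold on array 2), Fcer1g (3.68-fold, and 1.69-fold on array 2) and Tyrobp (2.30-fold, and 1.46-fold on array 2). C1qb alone of these was high at similar levels in both Atoh1-derived populations. These myeloid counts and folds are those after loess. In the authors' deposited ratios the medians of the list were higher, at 0.435 and 0.475. Those ratios also put Cd83 (1.56 and 1.32) and Aif1 (1.08 and 1.14) past 2-fold higher on both arrays. On array 2 they did so for Fcer1g (1.42) and Tyrobp (1.22), while Cd14 was past 2-fold lower there (−1.33). The other C1q genes were dim, with 93.9 (C1qa) and 92.4 (C1qc) in the double-positive and 92.2 and 96.2 in the tdTomato-only channel. C1qc was 1.13-fold higher on array 1 after loess (log2 ratio 0.18), against a log2 ratio of 1.62 in the authors' deposited ratios. No other loess ratio could be formed for either gene. Itgax had 71.1 and 71.0 in the EGFP-only channels, 111 in the double-positive and 89.1 in the tdTomato-only channel. It was thus above the limit in the Cy3 channels alone. The defining myeloid genes Cd68 and Csf1r had log2 ratios of −0.16 and −0.18 on array 1 and −0.26 and −0.06 on array 2. Itgam was above background in the double-positive and in both EGFP-only channels, at −0.11 on array 1, and below the limit in the tdTomato-only channel.

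The 5 genes whose pair of log2 ratios lay nearest to that of Ccl6, among 11318 genes measured on both arrays, leaving out members and genes with a saturated spot, were Reg4, Guca2b, Radx, Rsl1 and Arhgap23. Their Euclidean distances from Ccl6 ran from 0.10 for Reg4 to 0.39 for Arhgap23 on the log2 scale. These pairs rest on 2 arrays that share the EGFP-only population.

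Ccl5 recruits T cells and is made by activated T cells and natural killer cells. Its spot medians were 548 and 537 in the EGFP-only channels, 3524 in the double-positive and 1331 in the tdTomato-only channel. It was highest in the double-positive population, at 10.6-fold over EGFP only (log2 ratio 3.41), and 3.60-fold higher in the tdTomato-only population (log2 ratio 1.85). Over all settings these log2 ratios ranged from 2.77, with median centring, to 3.58 and from 1.33 to 1.99. Markers of T cells and intraepithelial lymphocytes followed the same order. The 24 markers on the array summed to 2524 and 2335 above the blank mean in the EGFP-only channels, 10742 in the double-positive and 5455 in the tdTomato-only channel. Of those measured, 15 of 18 were at least 2-fold higher after loess on array 1 (5.1% of all genes were) and 6 of 16 on array 2 (6.15%). The median log2 ratios of the list were 1.49 and 0.75 after loess, and 3.21 and 1.98 in the authors' deposited ratios. More of the list was thus past 2-fold on array 2 in the deposited ratios. Cd3g had spot medians of 107 and 105 in the EGFP-only channels, 479 in the double-positive and 235 in the tdTomato-only channel. Cd3e was above background in none of the channels. The part of lymphocyte RNA in the Ccl5 ratios was not tested.

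Other ligands and receptors of lymphocytes lay near the limit. Ccl4, which activated lymphocytes and macrophages make, had spot medians of 71.2 and 72.8 in the EGFP-only channels, 115 in the double-positive and 90.5 in the tdTomato-only channel. Only the Cy3 channels were above background, so the level of Ccl4 was at least 1.67-fold higher on array 1 and at least 1.09-fold higher on array 2 than in EGFP only. Such a bound is formed on levels normalized by loess and between arrays, not on the spot medians, and sets the bright level against the dim one or, where higher, the lowest level that counts as above background. It is open to dye bias, and for Ccl4 on array 1 it lies above the plain ratio of the spot medians. Its close relative Ccl3 had 71.2 and 71.9 in the EGFP-only channels, 100.4 in the double-positive and 89.1 in the tdTomato-only channel, with bounds of 1.36-fold and 1.08-fold. Xcl1, the lymphotactin of CD8 T cells and natural killer cells, had 69.4 and 69.2 in the EGFP-only channels, 92.3 in the double-positive and 90.6 in the tdTomato-only channel, with bounds of 1.22-fold and 1.12-fold. All 3 genes thus lay above the limit in both Atoh1-derived populations and below it in both EGFP-only channels.

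In all, 10 of the 44 members (22.7%) were above background in the Cy3 channel of array 1 alone, against 8.44% of all named genes, and 8 (18.2%) in that of array 2 alone, against 6.35%. None was above background in a Cy5 channel alone, against 0.738% and 1.23% of all named genes. Most bounds were small, and the highest apart from that of Ccl4 on array 1 was 1.57-fold on the normalized scale, for the double-positive value of Cxcl13. Cxcl13, the ligand that gathers B cells in follicles, had 70.3 and 70.9 in the EGFP-only channels, 109 in the double-positive and 97.6 in the tdTomato-only channel. Ccl24, an eosinophil attractant, was above its limit in the double-positive channel alone, at 83.6, with a bound of 1.06-fold.

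In the RefSeq gene order of chromosome 11, Ccl2, Ccl7, Ccl11, Ccl12 and Ccl8 follow each other with no other protein-coding gene between them, and so do Ccl5, Ccl9, Ccl6, Ccl3 and Ccl4. In the first run 1 of 5 members was above background in every channel and the other 4 in none. That member was Ccl8, with 91.4 and 94.1 in the EGFP-only channels, 94.0 in the double-positive and 102 in the tdTomato-only channel, and log2 ratios of −0.05 and 0.00. In the second run 3 of 5 were above background in the EGFP-only channels and all 5 in both Cy3 channels, and the same 3 (Ccl5, Ccl6, Ccl9) were at least 2-fold higher on each array. Probe sequences were not used here, and hybridisation of one ligand's RNA to a neighbour's probe was not tested.

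**Figure D3:**
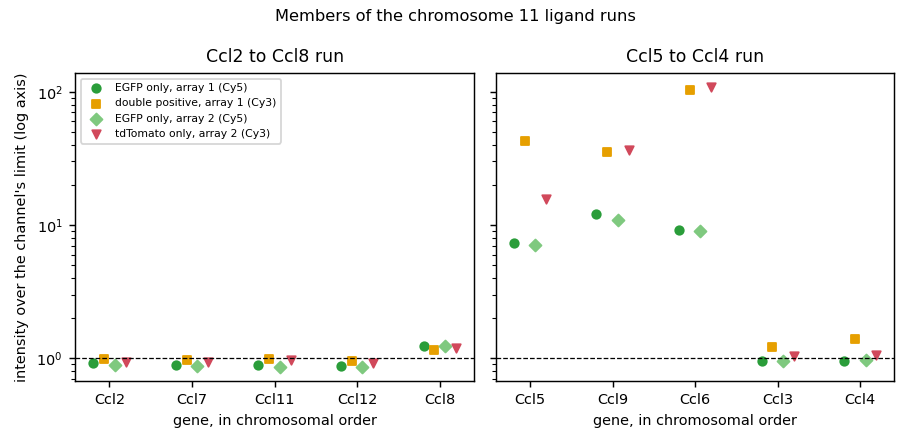
Spot median over the background limit of its channel (vertical log axis, dashed line at the limit) for the 10 members of both chromosome 11 runs, in chromosomal order, by channel. The Ccl2 to Ccl8 run lies at or near the limit, and in the Ccl5 to Ccl4 run all 5 genes lie above it in the double-positive and tdTomato-only channels.

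The epithelial ligands Ccl25 and Ccl20 stayed within 2-fold. Ccl25 had spot medians of 3206 and 3057 in the EGFP-only channels, 2048 in the double-positive and 2587 in the tdTomato-only channel. Its log2 ratios were 0.15 and 0.45, and their sign depended on the normalization, with −0.19 and 0.05 in the authors' deposited ratios and lows of −0.60 and −0.24 over all settings. Ccl20 had 180 and 172 in the EGFP-only channels, 142 in the double-positive and 131 in the tdTomato-only channel. Its log2 ratios were −0.14 and −0.33, below 0 under every setting and within 2-fold under each. The Ccr4 ligands Ccl17 (0.04 and 0.09) and Ccl22 (0.33 and 0.32) were also within 2-fold.

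Cx3cl1 and Cxcl16 are the chemokines made as membrane-bound proteins, which can hold cells that carry the receptors Cx3cr1 and Cxcr6. Cx3cl1 had spot medians of 135 and 133 in the EGFP-only channels, 163 in the double-positive and 258 in the tdTomato-only channel. It was 1.43-fold higher in the double-positive and 2.43-fold higher in the tdTomato-only population, which thus stood highest. Cxcl16 was measured by 2 probes. The first had 168 and 163 in the EGFP-only channels, 184 in the double-positive and 303 in the tdTomato-only channel, and was 1.34-fold and 2.38-fold higher. The second passed the limit only with tdTomato-only RNA, at 91.1, with a bound of 1.10-fold, while the authors' deposited log2 ratio for it was 1.94. With median centring the log2 ratios on array 2 fell to 0.98 for Cx3cl1 and 0.91 for Cxcl16, below 2-fold. With loess kept and the dim second probe averaged in, that of Cxcl16 was 0.70. The receptors of both ligands lay near the limit. Cx3cr1 passed it only with tdTomato-only RNA (86.1), and Cxcr6 only with double-positive RNA (94.1, with a bound of 1.26-fold).

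Apart from Cxcl16, the CXC ligands above background were dim. No ratio could be formed for Cxcl13, and after loess the ratios of the other dim ligands were within 2-fold of EGFP only. The interferon-induced ligands of Cxcr3 had log2 ratios on arrays 1 and 2 of 0.24 and 0.34 for Cxcl9, 0.08 and 0.10 for Cxcl10 and 0.10 and 0.30 for Cxcl11, which RefSeq lists as a transcribed pseudogene in this assembly. The neutrophil attractants Cxcl1 (−0.21 and −0.22) and Cxcl2 (0.17 and 0.02) were within 2-fold as well. The offset added before taking logs shrinks the ratios of dim spots, and the authors' deposited log2 ratios were wider, at 1.22 for Cxcl9 on array 2 and 1.21 for Cxcl2 on array 1. Cxcl14, an epithelial ligand, had 0.27 and 0.21, and Cxcl7 had −0.01 and 0.09.

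Of the 14 receptors, 4 were above background in every channel. The probe annotated as Ccr4, the receptor of Ccl17 and Ccl22 on regulatory and type 2 helper T cells, had spot medians of 5112 and 5105 in the EGFP-only channels, 3882 in the double-positive and 8412 in the tdTomato-only channel. The direction in the double-positive population depended on the normalization, with a log2 ratio of 0.51 after loess, 0.08 in the authors' deposited ratios and −0.34 with median centring. In the tdTomato-only population the probe was 2.94-fold higher, a log2 ratio of 1.56 that fell to 0.73 with median centring and was 1.03 in the authors' deposited ratios. This order differs from that of the lymphocyte markers, which were higher in the double-positive population. The symbol is ambiguous, since RefSeq also lists it as a synonym of Noct and, in capitals, of Cnot6, both named for their likeness to the yeast nuclease gene CCR4. The probes annotated for these genes had log2 ratios of 1.08 and 0.98 (Noct) and −0.42 and −0.32 (Cnot6) on arrays 1 and 2. Which transcript the probe reports was not tested, and its values stand under the annotation's name only.

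The other receptors were dim. Ccr9, the receptor of Ccl25 on gut-homing lymphocytes, had spot medians of 78.5 and 76.5 in the EGFP-only channels, 93.4 in the double-positive and 90.5 in the tdTomato-only channel, with log2 ratios of 0.14 and 0.04 but 1.10 and 0.88 in the authors' deposited ratios. Ccr1l1, a relative of Ccr1, had −0.33 and −0.24, and Cxcr4, the receptor of Cxcl12, −0.01 and 0.06. Ccr6, the receptor of Ccl20, was above background in both Cy3 channels and in neither Cy5 channel, with bounds of 1.11-fold and 1.16-fold, and Ccr2, the monocyte receptor of Ccl2, likewise with 1.05-fold and 1.04-fold. Cxcr3 (85.5) and Ccr10 (82.3) passed the limit in the double-positive channel alone and Ccr1 (89.0) in the tdTomato-only channel alone.

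Setting the tdTomato-only against the double-positive population, as the difference of the log2 ratios of the 2 arrays, removes the shared EGFP-only channel. Of 21 members, 1 was at least 2-fold higher (0.813% of 11311 genes) and 1 at least 2-fold lower (0.274%), and the median was 0.06, beside −0.02 for all genes. Ccl5 was lower by 2.96-fold (log2 ratio −1.56, and −1.44 to −1.61 over the settings). The probe annotated as Ccr4 was 2.06-fold higher (1.04, but 0.95 in the authors' deposited ratios). Cxcl16 (0.82) and Cx3cl1 (0.76) came next, both below 2-fold here and above it with the blank mean subtracted (1.07 and 1.04). Ccl6 (0.01) and Ccl9 (0.12) lay at the level of the double-positive population. Beside these, the lymphocyte markers had a median of −0.85 over 16 genes, the goblet cell markers 1.05 over 11, the enterocyte markers 0.66 over 8 and the Paneth cell markers −0.41 over 6. Genes saturated in both Cy3 channels were left out of these medians, and genes saturated in 1 of them were kept (Mmp7 in the double-positive, Zg16 and Tff3 in the tdTomato-only channel).

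**Figure D4:**
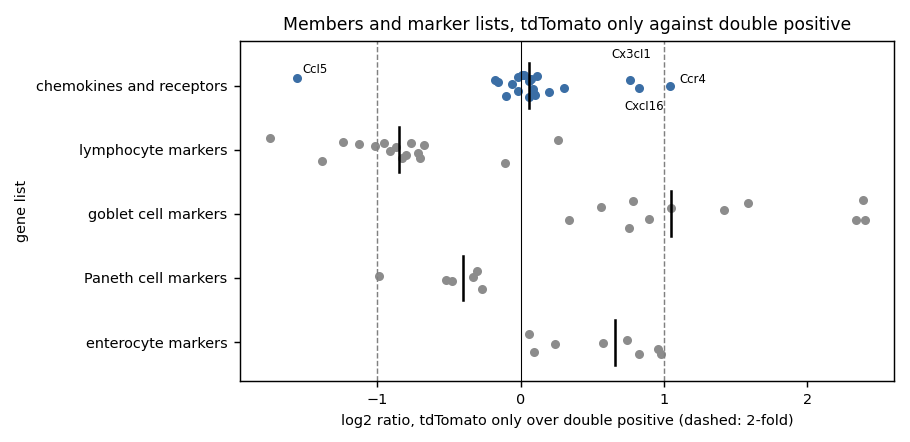
Log2 ratio of tdTomato only over double positive (horizontal axis, dashed lines at 2-fold) for the 21 members and for 4 lists of cell type markers, 1 point per gene, with a black bar at each list's median and a random vertical offset for legibility. Ccl5 at −1.56 lies among the lymphocyte markers, while Ccr4, Cxcl16 and Cx3cl1 lie to the right of the other members.

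Genes around the chemokine system were read from 4 lists of other ligands and receptors, signalling and processing genes, and upstream NF-κB, interferon and cytokine genes, 63 of which were on the array beside the members. On array 1, 5 of 52 measured genes exceeded EGFP only by 2-fold or more (5.1% of all genes did) and 0 fell below it by as much (0.34%). On array 2, 7 of 49 exceeded it by 2-fold or more (6.15% of all genes did) and 0 fell below it by as much (1.19%). Mmp7, the matrilysin of Paneth cells, was 27.3-fold and 22.1-fold higher on arrays 1 and 2, with its Cy3 spot on array 1 saturated. Rgs1, a brake on receptor signalling in lymphocytes, was 6.46-fold and 2.73-fold higher, the order seen for Ccl5, and the related Rgs2 2.50-fold and 10.1-fold. Grk2, a kinase that desensitises chemokine receptors, was 2.55-fold and 2.97-fold higher. After loess the leukocyte GTPase gene Rac2 was past 2-fold on array 1 alone (2.72-fold), and Cmtm8 (2.69-fold), the interferon regulator Irf7 (2.55-fold) and the NF-κB subunit gene Nfkb2 (2.07-fold) on array 2 alone. In the authors' deposited ratios Rac2 was past 2-fold on both arrays (log2 ratios 2.48 and 1.36). The median log2 ratio of the 24 upstream genes on the array, 22 of them measured, was −0.01 on array 1 and −0.02 on array 2. Of the atypical receptors that take up chemokines without signalling through G proteins, Ackr2 had 0.07 and 0.09 and Ackr4 −0.19 and −0.20.

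**Figure D5:**
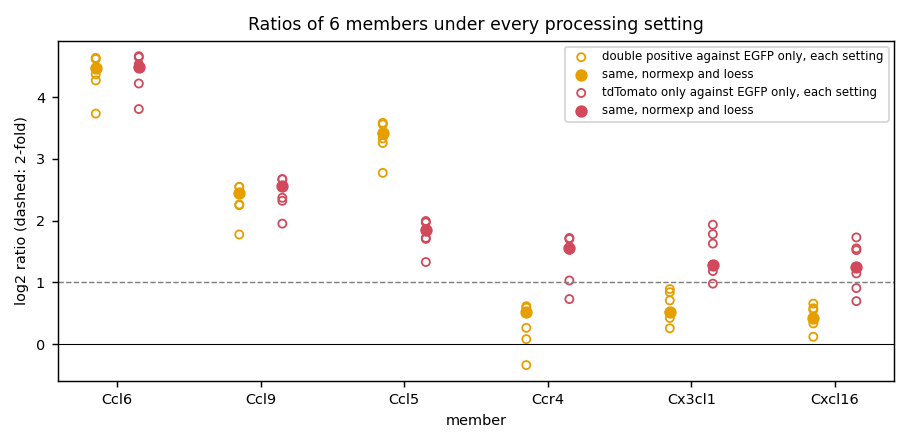
Log2 ratio to EGFP only (vertical axis, dashed line at 2-fold) of the 6 members past 2-fold on an array, under each of 10 processing settings, with filled circles for normexp and loess and open circles for the other settings. Ccl6, Ccl9 and Ccl5 stay past 2-fold in both populations, while Ccr4, Cx3cl1 and Cxcl16 reach below the line in the tdTomato-only population under at least 1 setting.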

How the data were processed

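Total RNA of 3 sorted fractions, each a single sample pooled from 4 mice, was amplified and coupled to Cy3 or Cy5 for 2 two-colour Toray arrays, per the labels' protocols. The scanner files that the authors deposited hold spot median intensity values of both dyes, per the file headers, with no background subtracted, as the blank spots show. Their deposited log2 ratios, Cy3 over Cy5 and normalized per the labels, have a median of 0 on each array; their making is not described in the sources used here. Here normexp (offset 50, no local background) was followed by loess within arrays, giving controls and quality-marked spots weight 0, in limma 3.58.1 under R 4.3.3. No member probe was quality-marked, and no dye swap was made, so dye and population cannot be told apart for a single probe. Probes above the blank mean plus 2 SD in the channels compared were averaged per gene. Of 23474 gene spots, among which 1 probe is spotted 2 times, 16632 have 1 gene symbol in the platform's annotation, 0 have several and 6842 have none; 3947 symbols were updated through RefSeq synonyms. Depth does not apply, and the number of arrays limits the precision. The steps were tested on simulated arrays. Members and lists were chosen with earlier results of these data known. Every member above background in at least 1 channel could be named, and related genes only past 2-fold apart from Ackr2 and Ackr4. These 2, like Noct, Cnot6, C1qa, C1qb, C1qc, Fcer1g and Tyrobp, were added after their values were seen. Alternatives were the authors' deposited ratios, subtraction of the blank mean, an offset of 16, median centring, quantile normalization, the Cy3 channels set directly against each other, a limit of 3 SD, trimmed blanks, a limit in 1 channel, the brightest probe, updated symbols and 1.5-fold. Proteins were not printed, since no protein table was used here.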

Additional observations from a re-analysis of the deposited data

How the results depend on the processing

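No paired analysis was possible because each population was 1 sample. Of 99 alternative values of the counts and medians, 86 kept to within 1.5 times the count or within the technical SD of 0.088 of the median, and no single member's ratio past 2-fold changed sign under any of them. Among these values, the counts of members at least 2-fold lower than EGFP only were 0 under every setting and had little room to move. Each measured member rested on 1 passing probe, so taking the brightest probe could not change a ratio. The limit of 3 SD kept the same 21 members on array 1. The share that held therefore overstates how little the results depend on the processing. In the double-positive comparison the count of 3 higher members became 5 in the authors' deposited ratios, which add Ccr9 and Cxcl2. The median of 0.15 was 0.32 in the deposited ratios, 0.58 with the blank mean subtracted, 0.29 with an offset of 16 and −0.0074 with median centring, which moves the median of all genes to −0.21. In the tdTomato-only comparison the count of 6 became 3 with median centring, and the median of 0.21 became 0.51, 0.44, 0.31 and 0.062 under the same 4 settings. For tdTomato only against double positive the count of 1 higher member was 3 at 1.5-fold, 3 after subtraction of the blank mean and 0 in the authors' ratios. Subtracting the blank mean, or a smaller offset, widens ratios of dim spots by construction; the other causes were not tested. The limit of 3 SD, trimmed blanks and updated symbols, under which 46 genes are members, left the counts above background within 1.5 times. Most members lie close to the limit, where signal over background sets how small a difference can be seen.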
